A study of Mus musculus with 4 samples.

Results

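Interferon-induced genes are the transcripts that cells raise when they sense interferon, and 39 of them were described here in mouse CD4+ T cells on 2-colour Agilent arrays. The members were all probes on the arrays, other than control spots, that carried the name of a listed gene or an older name of it checked through the probe's accession. Of the 39 genes, 37 had a probe (59 probes in all), 2 (Xaf1 and Dtx3l) had none under those names, and 36 passed the filter on dim probes (3 or more of the 26 channels had to be well above background), out of 19932 genes that passed and 27670 gene names on the arrays. Oasl1 did not pass. The list was divided into 29 type I style genes, of which 26 were tested, and 10 IFN-gamma style genes, all tested (Irf1, Irf8, Ifi47, Igtp, Irgm1, Gbp2, Gbp3, Tap1, Psmb8 and Psmb9), although many members respond to both kinds of interferon.

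The series asked how TGFb converts T cells to regulatory T cells (Treg) and how IL6 inhibits that. CD4+ cells of mouse lymph node were grown for 4 days on plates coated with 1 ug/ml anti-CD3, and all of them received 100 units/ml IL2 in a 3-day incubation. The 4 conditions were IL2 alone (3 arrays), IL2 with 4 ng/ml TGFb (TGFb, 3 arrays), IL2 with 4 ng/ml TGFb and 25 ng/ml IL6 (TGFb plus IL6, 4 arrays) and IL2 with 25 ng/ml IL6 (IL6, 3 arrays). Each array held a Treg and a T-effector sample in opposite dyes, which gave 26 channels. How Treg and T-effector cells were separated, how many animals were used, their strain and age, and whether the arrays within a condition stem from different cultures are not given in the sources used here, so the p-values measure only the spread between arrays, which may be technical.

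Type I interferons signal through the receptor chains Ifnar1 and Ifnar2 to a complex that holds Stat2 and Irf9 and binds interferon-stimulated response elements (ISRE) in promoters. IFN-gamma, a product of activated T cells, signals through Ifngr1 and Ifngr2 to factors that bind gamma-activated sites (GAS). The induced proteins sense or degrade viral RNA, attack the vacuoles of intracellular microbes, process antigen, or, as with Usp18 and the Socs proteins, dampen the signal.

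Promoters were matched for 30 of the 39 members in the RefSeq table of build GRCm38.p6, and Oas2, Zbp1, Usp18, Parp14, Rtp4, Mx1, Dhx58, Parp9 and Mx2 had none. Each window ran from 250 bases before to 50 after the start of the gene and was searched on both strands for the ISRE core GAAANNGAAA and the GAS letters TTCNNNGAA, with overlapping matches counted separately. The ISRE core was in the windows of 14 of 30 members (46.7%) against 3.99% of the 27025 genes searched, in 10 of 20 type I style (50%) and 4 of 10 IFN-gamma style members (40%). The GAS letters were in 10 of 30 members (33.3%) against 9.55% of all genes. A match is only these letters in this window and not a shown binding site. The 250 bases before the start are printed for 6 members whose signals are described below, because they carry the response elements by which the list is known. Capitals mark the fixed letters of an ISRE core, on either strand, in the promoters of Ifit1, Ifit3, Isg15, Gbp2 and Gbp3, and the fixed letters of the GAS in that of Irf1. They lie at chr19:34640639-34640888 (Ifit1, plus strand), chr19:34583279-34583528 (Ifit3, plus strand), chr4:156200819-156201068 (Isg15, minus strand), chr3:142620413-142620662 (Gbp2, plus strand), chr3:142559794-142560043 (Gbp3, plus strand) and chr11:53769764-53770013 (Irf1, plus strand).

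Ifit1: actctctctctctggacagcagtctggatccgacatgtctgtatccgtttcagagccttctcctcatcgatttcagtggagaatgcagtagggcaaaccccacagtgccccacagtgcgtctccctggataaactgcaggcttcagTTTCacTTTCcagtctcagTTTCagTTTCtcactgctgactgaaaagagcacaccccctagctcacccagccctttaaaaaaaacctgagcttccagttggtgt
Ifit3: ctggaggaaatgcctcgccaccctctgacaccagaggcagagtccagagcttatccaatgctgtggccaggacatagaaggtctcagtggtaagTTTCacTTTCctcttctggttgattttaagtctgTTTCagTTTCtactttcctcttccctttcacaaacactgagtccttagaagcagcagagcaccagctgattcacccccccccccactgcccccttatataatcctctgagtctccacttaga
Isg15: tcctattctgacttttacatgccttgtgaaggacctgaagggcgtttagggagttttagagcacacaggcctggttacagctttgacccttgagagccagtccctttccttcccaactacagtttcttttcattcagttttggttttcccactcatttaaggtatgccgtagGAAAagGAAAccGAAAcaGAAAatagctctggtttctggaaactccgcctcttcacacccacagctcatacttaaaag
Gbp2: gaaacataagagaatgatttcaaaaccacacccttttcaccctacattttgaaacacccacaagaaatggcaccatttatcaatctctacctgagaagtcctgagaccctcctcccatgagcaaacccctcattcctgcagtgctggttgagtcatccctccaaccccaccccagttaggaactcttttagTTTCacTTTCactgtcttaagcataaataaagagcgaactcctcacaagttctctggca
Gbp3: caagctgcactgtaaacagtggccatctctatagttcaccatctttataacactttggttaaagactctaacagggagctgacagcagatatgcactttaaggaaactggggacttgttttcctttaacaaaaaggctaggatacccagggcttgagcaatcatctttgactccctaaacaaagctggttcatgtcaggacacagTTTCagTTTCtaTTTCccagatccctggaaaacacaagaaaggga
Irf1: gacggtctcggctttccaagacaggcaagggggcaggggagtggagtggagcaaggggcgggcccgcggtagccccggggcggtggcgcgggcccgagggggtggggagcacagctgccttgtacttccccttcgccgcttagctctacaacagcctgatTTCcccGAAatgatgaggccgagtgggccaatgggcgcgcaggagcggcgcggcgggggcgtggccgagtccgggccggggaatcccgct

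The ISRE core nearest to the start began 85 bases before it in Ifit1, 122 in Ifit3, 66 in Isg15, 59 in Gbp2 and 39 in Gbp3. In Isg15 the capitals are 3 overlapping matches and in Gbp3 2. Irf1 held no ISRE core in this window and 1 GAS match, 90 bases before the start.

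All 13 arrays showed T cell markers, and Foxp3, the defining factor of Treg cells, was 2.39 ± 0.17 (SE) higher on the log2 scale in Treg than in T-effector samples with IL2 (limma, adjusted p = 2.23e-05). Probes well above background made up 38.9% to 69.8% of all in Treg channels and 41.8% to 67% in T-effector channels. Negative controls were brighter in Cy3 on the 3 arrays of slide B (118 to 123 against 3.59 to 25.4 on the other 10). The 13 arrays came from 5 slides (labelled A to E in this text), and the 3 pairs of TGFb and TGFb plus IL6 arrays with the same number shared a slide and a dye orientation (slides E, B and D). Signals below are log2 intensities after normalization, and a value cannot be set against that of another gene, since probes differ in brightness. In these bulk samples, fewer cells of a type and less RNA per cell cannot be told apart. Except for slide A, the share of all genes with non-overlapping groups is not given, so statements on overlap only describe the arrays.

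Slide A, which held IL2 array 1 and IL6 array 2, stood apart in its Treg channels. Of the 36 members, 15 (41.7%) were higher on both of its Treg channels than in each of the other 4 IL2 and IL6 Treg channels, against 16.1% of all genes, and 4 (11.1%: Irf8, Usp18, Tap1 and Oas3) were lower on both, against 14.4% of all genes. In T-effector channels the same comparison gave 3 members above and 3 below (8.33% each), against 6.44% and 12.4% of all genes. Rtp4, a chaperone of receptors that interferon strongly induces, had log2 signals of 11.04 and 11.32 in the Treg samples of slide A and 8.48 to 9.15 in the other 4. Ifit3, a partner of Ifit1 in binding foreign RNA, had 9.84 and 9.31 against 7.08 to 7.70. Ifit1 itself had 8.50 and 7.72 against 6.38 to 6.88.

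For these 3 genes the slide A Treg samples were the highest Treg values of their conditions, with no overlap. Gbp3, a guanylate-binding GTPase, had 12.32 and 12.80 against 11.20 to 11.65. Zbp1, a sensor of Z-form nucleic acid, had 9.19 on IL2 array 1 and 11.02 on IL6 array 2, against 8.65 to 8.89. Irf8, a factor of B and myeloid cells as well as of interferon responses, went the other way, with 10.28 and 9.77 against 10.78 to 12.06. Other measures of the same channels also differed. The summed signal of 7 CD8 T and NK cell markers was 1614.53 and 1647.25 in the Treg samples of slide A and 3019.64 to 4080.81 in those of the other IL2 and IL6 arrays. The Y-linked gene Ddx3y had 8.87 and 8.94 in the slide A Treg samples, 5.80 to 6.43 in the other IL2 and IL6 Treg samples, 7.77 to 8.10 in all Treg samples given TGFb, and 5.49 to 6.62 in the T-effector samples of all 13 arrays. Which animals gave which samples is not given. A difference between animals therefore cannot be told apart from slide A in the IL2 and IL6 Treg samples, or from TGFb in Treg. The same holds for IL6 against IL2 in Treg, and for the cell type in a ratio of Treg over T-effector. A further Y-linked gene, Eif2s3y, had 9.55, 9.55 and 9.87 in Treg samples with TGFb and 9.27, 9.09, 9.55 and 8.81 with TGFb plus IL6. It had 10.17, 8.46 and 7.67 in Treg samples with IL2, and 6.46 and 6.36 with IL6 (arrays 1 and 3). T-effector samples of the 12 arrays with a value had 5.43 to 7.04. Results that rest on slide A are given with and without it, a choice made after these values were seen. Since the members' own values singled out the slide, calls gained without it are not an independent test.

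**Figure D1:**
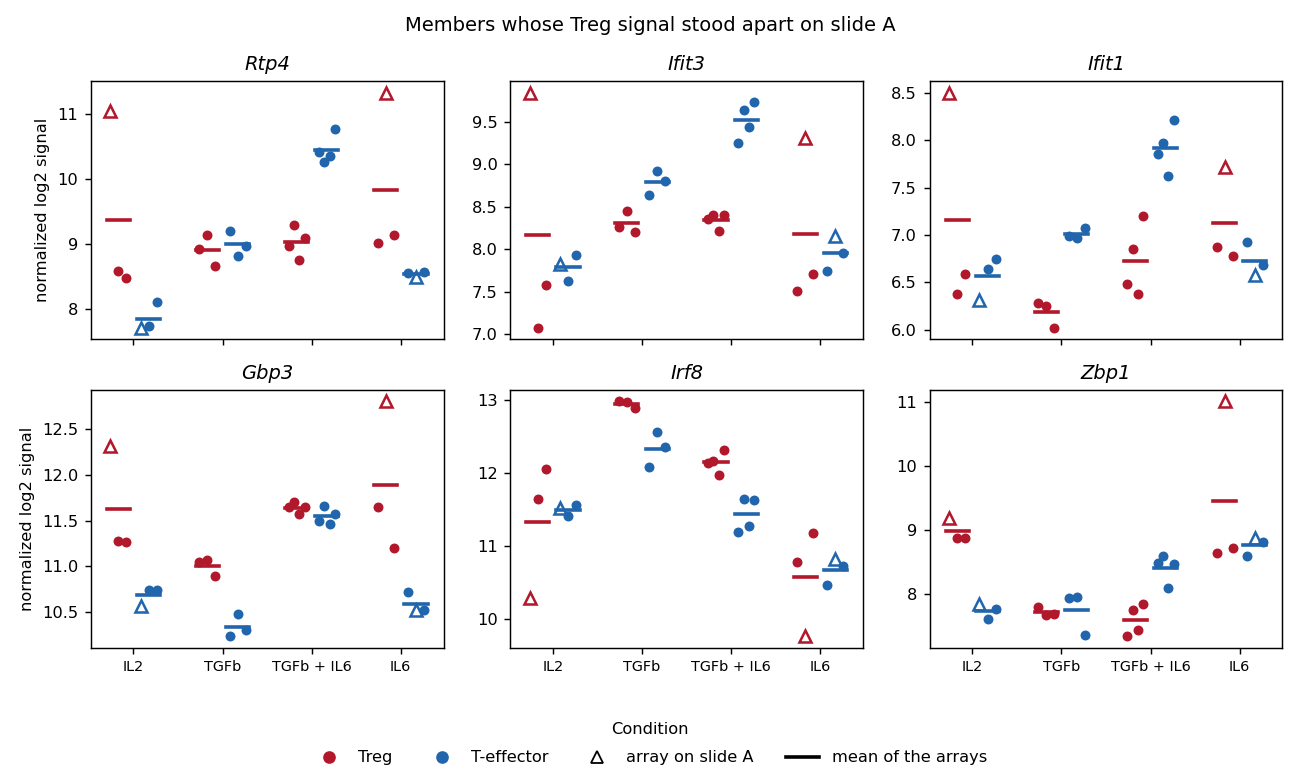
Log2 signal (y axis) of Rtp4, Ifit3, Ifit1, Gbp3, Irf8 and Zbp1 in each array by condition (x axis), with Treg and T-effector samples as separate points and the slide A arrays marked. The slide A Treg samples of Rtp4 sit at 11.04 and 11.32, above the other IL2 and IL6 Treg samples at 8.48 to 9.15, and those of Irf8 sit below.

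The members had their clearest shared difference in T-effector cells when IL6 was added to TGFb. Of the 36 members, 12 rose and 1 fell in T-effector samples, where 4.04% of all genes rose and 3.15% fell, and the member median was 0.35 on the log2 scale against -0.02 over all genes. Among type I style members 10 of 26 rose and 1 fell (median 0.58), and among IFN-gamma style members 2 of 10 rose (median 0.13). In Treg samples the same addition of IL6 gave 2 members higher and 1 lower, where 2.77% and 2.6% of all genes changed, with a member median of 0.10. The 3 array pairs on a shared slide gave T-effector medians of 0.33, 0.40 and 0.34 (slides D, E and B, with 28, 28 and 27 of 36 members positive) and Treg medians of 0.02, 0.06 and 0.10. Across the alternatives of processing, leaving out each array included, the T-effector median stayed between 0.26 and 0.61. The count of members called was 5 without slide B, on which 1 of 3 TGFb arrays and 2 of 4 TGFb plus IL6 arrays lay, and 18 (16 higher and 2 lower, where 5.12% and 4.01% of all genes changed) without slide A. The share of all genes called without slide B is not given, so that lower count cannot be read as particular to the members.

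**Figure D2:**
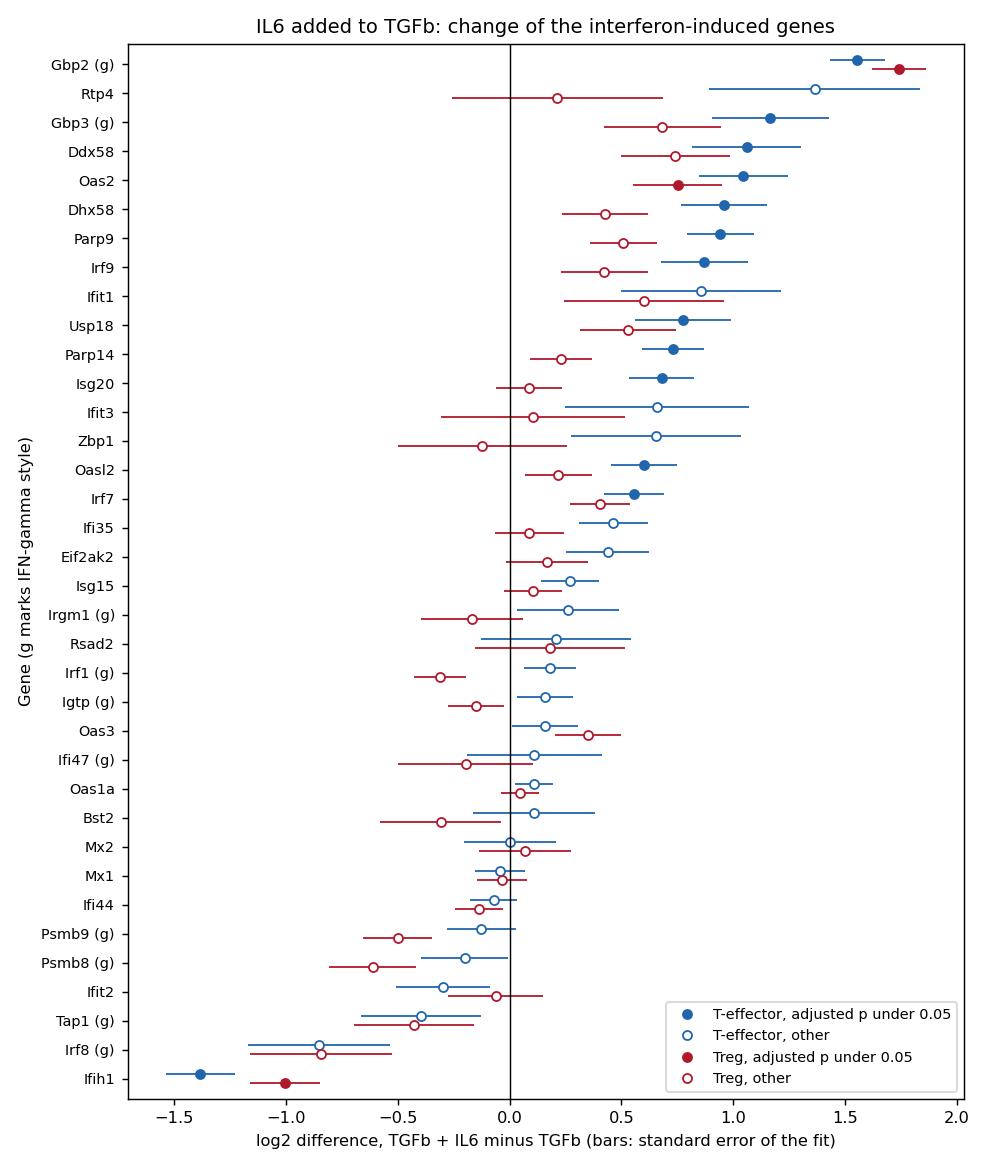
Log2 difference between TGFb plus IL6 and TGFb for the 36 tested members (rows), in Treg and T-effector samples, as points with standard errors of the fit, ordered by the T-effector difference, with filled points for members called. Gbp2 is furthest to the right in both cell samples (1.74 and 1.56) and Ifih1, which fell by 1.00 and by 1.38, is furthest to the left, and 28 members are positive in T-effector samples.

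The guanylate-binding GTPases help to break open the vacuoles of intracellular microbes, and 1 of them, Gbp2, had the largest rise in each cell sample. It had T-effector log2 signals of 13.62, 13.85 and 13.50 with TGFb and 15.24, 15.37, 14.94 and 15.20 with TGFb plus IL6, a rise of 1.56 ± 0.12 (SE, 2.94-fold, adjusted p = 1.93e-08 from limma with Benjamini-Hochberg adjustment over all 19932 genes, as in all tests below). In Treg samples it had 13.13, 13.34 and 13.48 with TGFb and 14.99, 15.16, 14.88 and 15.29 with IL6 added, a rise of 1.74 ± 0.12 (adjusted p = 3.59e-09). The groups were far apart in both cell samples and did not overlap, and both rises passed the test under every alternative run. Gbp3 had T-effector signals of 10.24, 10.48 and 10.31 with TGFb and 11.49, 11.66, 11.46 and 11.57 with IL6 added, with no overlap, a rise of 1.17 ± 0.26 (adjusted p = 0.00645). In Treg samples Gbp3 had 11.04, 11.07 and 10.89 and then 11.64, 11.70, 11.57 and 11.65, which also did not overlap, and the difference of 0.68 ± 0.26 had an adjusted p of 0.164, or 0.000322 without slide A. Gbp3 was among the members whose Treg values singled out that slide, so the latter p-value is not an independent test. Igtp, an immunity-related GTPase, had T-effector signals of 14.49, 14.55 and 14.21 with TGFb and 14.71, 14.67, 14.46 and 14.45 with IL6 added, which overlapped (0.16 ± 0.13, adjusted p = 0.625). Mx1 and Mx2, GTPases that block viral nucleocapsids, differed by -0.04 and 0.00 in T-effector samples and were not called.

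The 3 cytoplasmic sensors of double-stranded RNA moved in opposite directions. Ddx58 (RIG-I) had T-effector signals of 6.23, 6.95 and 6.64 with TGFb and 7.04, 7.92, 7.87 and 8.02 with IL6 added, a rise of 1.06 ± 0.24 (adjusted p = 0.00774). Dhx58 (LGP2), a regulator of the other 2 sensors, had 6.54, 7.38 and 6.84 and then 7.49, 8.15, 7.83 and 8.16, a rise of 0.96 ± 0.19 (adjusted p = 0.00243). In both genes every TGFb array was below every array with IL6 added. Ifih1 (MDA5) had 8.40, 8.82 and 8.63 with TGFb and 7.08, 7.47, 6.97 and 7.52 with IL6 added, and fell by 1.38 ± 0.16 (adjusted p = 3.17e-06). It fell in Treg samples as well, from 7.83, 8.08 and 7.88 to 6.89, 7.09, 6.57 and 7.05 (by 1.00 ± 0.16, adjusted p = 0.000194). Ifih1 was the 1 member called lower in each cell sample. Its 1 other probe, above background in 8 of 26 channels, had mean differences of -0.25 in T-effector and -0.12 in Treg samples, so the size of the fall rests on the brighter probe. Of the other 3 Ddx58 probes, the next brightest (20 channels) had a T-effector difference of 0.70, and those with fewer channels had 0.28 and 0.11.

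**Figure D3:**
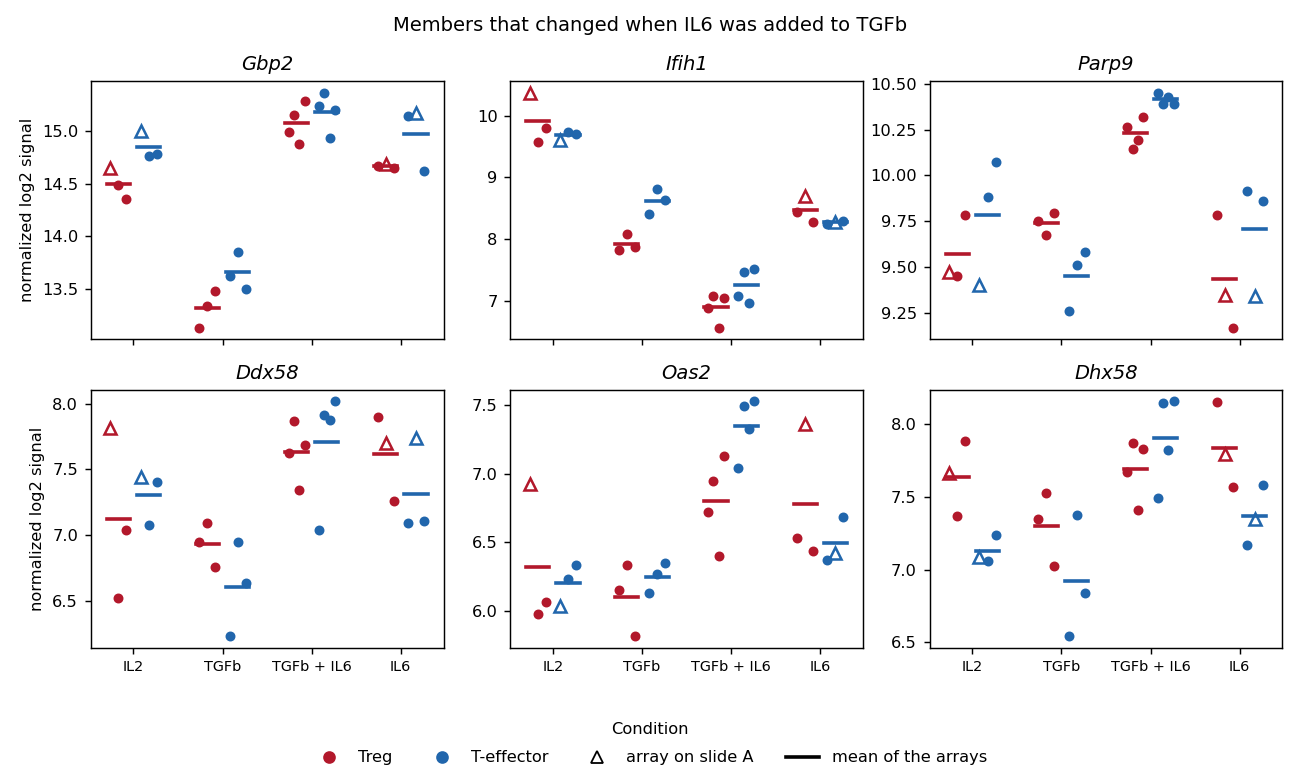
Log2 signal (y axis) of Gbp2, Ifih1, Parp9, Ddx58, Oas2 and Dhx58 in each array by condition (x axis), with Treg and T-effector samples as separate points. In T-effector samples each of Gbp2, Parp9, Ddx58, Oas2 and Dhx58 is higher on all 4 TGFb plus IL6 arrays than on the 3 TGFb arrays, and Ifih1 is lower.

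Of the 10 tested members that bind or degrade RNA, 3 rose in T-effector samples and none fell by the test, where 4.04% of all genes rose and 3.15% fell. The Oas enzymes make the 2-5A signal that activates RNase L. Oas2 had T-effector signals of 6.13, 6.27 and 6.35 with TGFb, where no array was well above background. With IL6 added it had 7.04, 7.49, 7.33 and 7.53, and all 4 arrays were well above background. Its mean was 2.14-fold higher with IL6 added, and the fitted difference was 1.05 (adjusted p = 0.0016). In Treg samples it had 6.15, 6.33 and 5.82 and then 6.72, 6.95, 6.40 and 7.13. Again none of the TGFb arrays and all 4 of the others were well above background. The Treg mean was 1.62-fold higher, and the fitted difference was 0.75 (adjusted p = 0.027). With the replicate block, which pairs the arrays of a shared slide, that Treg difference was 0.61 and no longer passed (adjusted p = 0.0562). The 2 folds set the brighter mean against the higher of the dim value and the array's lowest signal above background. They are not lower bounds of the fitted differences, and the size of a change from a dim value is uncertain. Oasl2, an Oas-like protein, had 6.61, 6.29 and 6.24 and then 7.14, 6.99, 6.72 and 6.99 in T-effector samples, a rise of 0.60 ± 0.15 (adjusted p = 0.0131). Isg20, an exonuclease for RNA, had 8.26, 8.67 and 8.56 and then 9.03, 9.40, 9.04 and 9.32, a rise of 0.68 ± 0.15 (adjusted p = 0.00444). The other Isg20 probe, above background in all 26 channels, had a smaller mean difference of 0.35. On the tested probes the T-effector groups of Oas2, Oasl2 and Isg20, members already called, were separate. In Treg samples Isg20 overlapped (9.45, 9.45 and 9.19 against 9.48, 9.60, 9.21 and 9.42).

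Ifit1, Ifit3 and Zbp1 belong to the same group and did not pass the test over all arrays. Ifit1 had T-effector signals of 6.99, 6.97 and 7.07 with TGFb and 7.86, 7.98, 7.62 and 8.22 with IL6 added (0.85 ± 0.36, adjusted p = 0.192). Ifit3 had 8.64, 8.92 and 8.81 and then 9.25, 9.64, 9.44 and 9.73 (0.66 ± 0.41, adjusted p = 0.478). The other Ifit3 probe, above background in 21 channels, had a mean difference of 0.34. The arrays did not overlap in either gene, which only describes these arrays. Why neither gene passed was not tested. Without slide A the differences were 0.87 for Ifit1 (adjusted p = 0.00114), 0.71 for Ifit3 (adjusted p = 0.00118) and 0.68 for Zbp1 (adjusted p = 0.00513). These genes, and Rtp4, were among the members whose Treg values singled out slide A. Their p-values without it are therefore not an independent test. Rtp4 behaved alike, with 9.20, 8.82 and 8.98 with TGFb and 10.41, 10.27, 10.36 and 10.76 with IL6 added (1.36 ± 0.47, adjusted p = 0.0945, and 1.42 with adjusted p = 2.24e-05 without slide A). In Treg samples Rtp4 had 8.92, 9.13 and 8.66 and then 8.97, 9.30, 8.76 and 9.09, which overlapped widely. Zbp1 in T-effector samples had 7.95, 7.96 and 7.37 with TGFb and 8.49, 8.59, 8.09 and 8.48 with IL6 added, again separate.

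Of the 4 ubiquitin-like and ADP-ribose genes, 3 rose in T-effector samples, where 4.04% of all genes rose. Parp9, a protein of the ADP-ribose pathway, had T-effector signals of 9.26, 9.51 and 9.58 with TGFb and 10.45, 10.39, 10.43 and 10.39 with IL6 added, a rise of 0.94 ± 0.15 (adjusted p = 0.000253). Parp14 had 11.32, 11.06 and 10.99 and then 11.87, 11.96, 11.49 and 12.05, a rise of 0.73 ± 0.14 (adjusted p = 0.00137). Other Parp14 probes had mean differences of 0.71 (above background in 26 channels) and 0.26 (20 channels). Usp18, which removes Isg15 from proteins and limits type I receptor signalling, had 7.78, 7.87 and 7.48 and then 8.52, 8.40, 8.35 and 8.62, a rise of 0.77 ± 0.21 (adjusted p = 0.0288), which with the replicate block was 0.72 and did not pass (adjusted p = 0.07). The tested probes of Parp9, Parp14 and Usp18, members already called, did not overlap between the conditions. Isg15, the ubiquitin-like protein itself, had 6.88, 6.79 and 6.52 and then 7.18, 6.96, 6.91 and 6.87 (0.27 ± 0.13, adjusted p = 0.288), with 1 TGFb array above the lowest of the others.

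Among the transcription factors, Irf9, the DNA-binding partner of Stat2, rose by 0.87 ± 0.19 (adjusted p = 0.00591) in T-effector samples. The other Irf9 probe, above background in 17 channels, had a mean difference of 0.33. Irf7, which amplifies type I interferon production, had 6.13, 6.32 and 6.48 with TGFb and 6.61, 7.07, 6.75 and 7.13 with IL6 added, a rise of 0.55 ± 0.13 (adjusted p = 0.0116). Its signals were close to background, with 10 Treg and 11 T-effector channels well above it. Irf1, a transcription factor that IFN-gamma induces, had 13.77, 13.56 and 13.45 and then 13.95, 13.82, 13.63 and 13.66, which overlapped. Irf8 had 12.09, 12.55 and 12.35 with TGFb and 11.20, 11.65, 11.28 and 11.63 with IL6 added, lower on every array (-0.85 ± 0.32, adjusted p = 0.129, and -0.90 with adjusted p = 0.000824 without slide A). Its own Treg values stood apart on slide A, so the latter p-value is not an independent test. The summed signal of 8 B cell markers in T-effector samples was 2612.04 to 3347.26 with TGFb and 1484.79 to 2603.53 with IL6 added. Of the 8 markers none was called higher and 1 lower (median difference -0.07), where 4.04% and 3.15% of all genes changed. The part of these markers in the Irf8 difference was not tested. The antigen-processing members Tap1, Psmb8 and Psmb9, a peptide transporter and 2 immunoproteasome subunits, differed by -0.40, -0.20 and -0.13 in T-effector samples, and none was called. Tap1 had 9.52, 8.83 and 8.90 and then 9.23, 8.41, 8.90 and 8.15, with wide overlap.

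The contrast of these IL6 differences between Treg and T-effector samples was tested as a change of the ratio on the arrays. Over all arrays no member was called (0 of 36 in either direction, with 7 at an unadjusted p under 0.05), where 0.1% of all genes were higher and 0.191% lower in limma. The change of ratio was negative in 29 of 36 members, with a median of -0.31, and the pairs on slides D, E and B gave medians of -0.29, -0.34 and -0.33. Without slide A 5 members were called lower, namely Rtp4 (-1.28, adjusted p = 0.0133), Zbp1 (-0.83, 0.0205), Ifit3 (-0.66, 0.0215), Gbp3 (-0.55, 0.0272) and Irgm1 (-0.48, 0.0433), where 0.823% of all genes were lower. All 5 were among the members higher on both slide A Treg channels, by which that slide was singled out. These calls are therefore not independent of the choice to leave it out.

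The direct comparison of Treg over T-effector on each array differed between conditions. With IL2 alone 6 members were higher in Treg and 1 lower, where 7.4% of all genes were higher and 3.56% lower, and the member median was 0.16 against 0.02 over all genes. With TGFb 2 were higher and 1 lower (4.12% and 1.8% of all genes), with IL6 3 higher and 1 lower (3.75% and 2.07%), and with TGFb plus IL6 1 was higher and 6 lower (3.49% and 2.33%). With TGFb plus IL6 28 of 36 members were on the T-effector side, and the median was -0.20 against -0.01 over all genes. Type I style medians were negative on all 4 TGFb plus IL6 arrays (-0.35 to -0.19), and lay at 0.47 and 0.39 on the slide A arrays against 0.01 and 0.07 on the other IL2 arrays and 0.15 and 0.04 on the other IL6 arrays. IFN-gamma style medians over the arrays of a condition averaged -0.01, 0.13, -0.12 and 0.07 (IL2, TGFb, TGFb plus IL6 and IL6). Their order depended on the scaling, since with median centring, which left all genes at a median of -0.29 with IL2 and -0.32 with IL6, the fitted IFN-gamma style median was -1.08 with IL2 and -1.13 with IL6. The fitted type I style medians of 0.23 with IL2 and 0.14 with IL6 also turned negative with median centring. Their sign in these 2 conditions therefore depended on the scaling too.

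**Figure D4:**
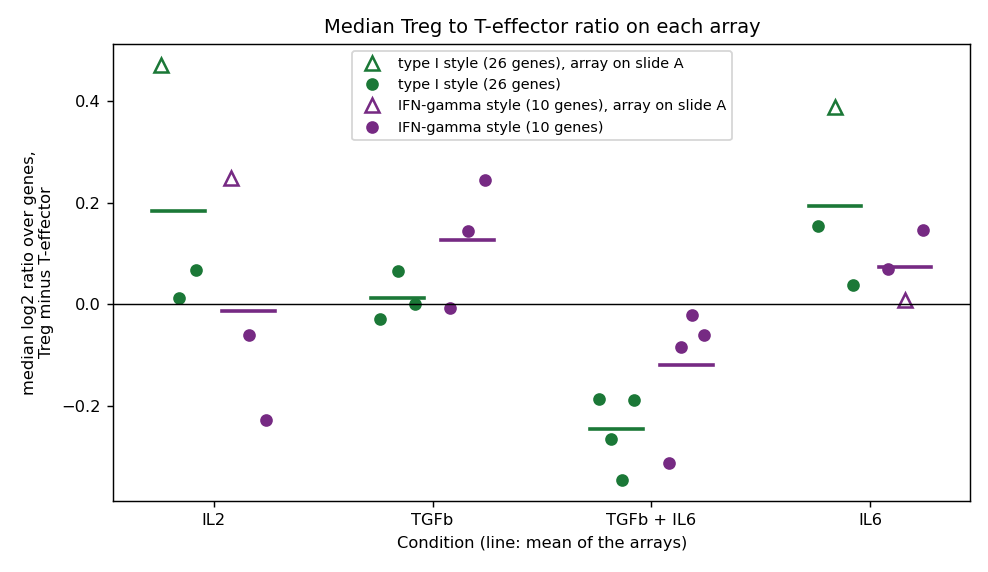
Median log2 ratio of Treg over T-effector (y axis) of the type I style and IFN-gamma style members on each array (x axis, by condition). The 4 TGFb plus IL6 arrays have type I style medians of -0.35 to -0.19, and the slide A arrays have the highest, 0.47 and 0.39.

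**Figure D5:**
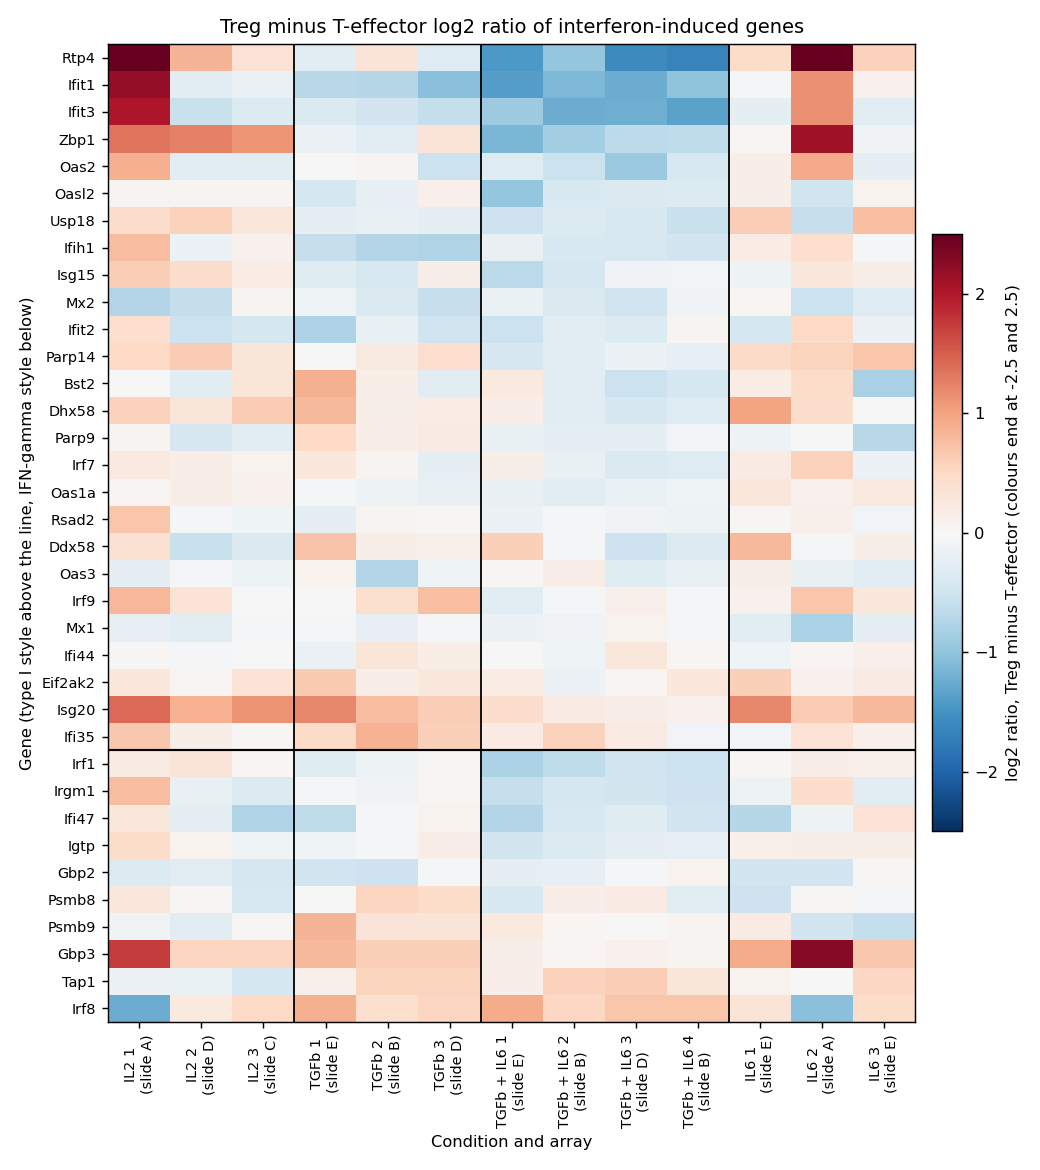
Log2 ratio of Treg over T-effector for the 36 tested members (rows) on the 13 arrays (columns, by condition), as colour. Rtp4, Ifit1 and Ifit3 are on the T-effector side on all TGFb plus IL6 arrays and on the Treg side on the slide A arrays.

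With TGFb plus IL6 the members lower in Treg were effectors and Irf1. Rtp4 had Treg signals of 8.97, 9.30, 8.76 and 9.09 on the arrays whose T-effector signals were 10.41, 10.27, 10.36 and 10.76, a ratio of -1.42 ± 0.36 (adjusted p = 0.0406). Ifit1 had 6.48, 6.85, 6.38 and 7.21 in Treg against 7.86, 7.98, 7.62 and 8.22 in T-effector samples (-1.19 ± 0.28, adjusted p = 0.0316). Ifit3 had 8.35, 8.41, 8.22 and 8.40 in Treg against 9.25, 9.64, 9.44 and 9.73 (-1.17 ± 0.28, adjusted p = 0.0332). These 3 were lower in Treg on all 4 arrays and did not overlap between the cell samples. Irf1 had 13.17, 13.18, 13.13 and 13.12 in Treg against 13.95, 13.82, 13.63 and 13.66 (-0.61 ± 0.07, adjusted p = 0.000787), although its other probe, as often above background, gave 0.13. Oas2 (-0.55, adjusted p = 0.0488) and Oasl2 (-0.51, adjusted p = 0.0271) were smaller. Of 27 alternatives, the call was lost in 16 for Oas2, 15 for Rtp4, 10 for Ifit3, 8 for Ifit1, 8 for Oasl2 and 2 for Irf1. Tap1 was the 1 member called higher in Treg, at 9.39, 8.99, 9.52 and 8.45 against 9.23, 8.41, 8.90 and 8.15 (0.41 ± 0.11, adjusted p = 0.0497). That call was lost in 15 of 27 alternatives. Without slide A 2 members were higher and 14 lower, where 7% and 6.92% of all genes changed, and the member median remained -0.20. The count was sensitive to other choices too, since 0 members were called without slide B. No share of all genes is given for that setting, so the loss cannot be read as particular to the members. With the replicate block Rtp4 (-1.65, adjusted p = 0.0612), Oasl2 (-0.54, 0.0539) and Tap1 (0.48, 0.0527) no longer passed. With median centring Rtp4 (-1.47, adjusted p = 0.0892), Ifit3 (-1.20, 0.0539), Irf1 (-0.71, 0.182), Oasl2 (-0.51, 0.0616) and Tap1 (0.41, 0.442) did not pass.

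With IL2 alone the Treg samples had more of several effectors, and slide A carried part of the size. Rtp4 had Treg signals of 11.04, 8.58 and 8.48 against 7.72, 7.74 and 8.11 in T-effector samples (1.69 ± 0.42, adjusted p = 0.0272, and 0.74 with adjusted p = 0.0356 without slide A). Gbp3 had 12.32, 11.28 and 11.27 against 10.57, 10.74 and 10.74 (1.02 ± 0.24, adjusted p = 0.0207, and 0.58 with adjusted p = 0.00481 without slide A). Slide A gave the highest Treg value in both, yet the other 2 arrays were also above all T-effector values. Isg20 had 9.81, 9.09 and 9.46 against 8.39, 8.21 and 8.33 (1.19 ± 0.12, adjusted p = 0.000268), Zbp1 had 9.19, 8.88 and 8.89 against 7.85, 7.61 and 7.77 (1.25 ± 0.33, adjusted p = 0.0334), Dhx58 was higher by 0.57 and Parp14 by 0.45 (0.35 with adjusted p = 0.0714 without slide A, and -0.53 with median centring). All 6 of these calls were lost with median centring, where the differences were 0.98 for Rtp4 (adjusted p = 0.0793), 0.05 for Gbp3 (0.907), 0.42 for Isg20 (0.0763), 0.57 for Zbp1 (0.178) and 0.14 for Dhx58 (0.512), so these higher Treg levels depend on the scaling. Gbp2 was lower in Treg, at 14.65, 14.49 and 14.36 against 15.00, 14.77 and 14.78 (-0.40 ± 0.09, adjusted p = 0.0171). Ifit1, at 8.50, 6.38 and 6.58 in Treg against 6.31, 6.64 and 6.75, was higher in Treg on slide A alone.

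Isg20 was called higher in Treg in 3 conditions, of which the call with TGFb was kept with median centring (0.99) and those with IL2 and IL6 were not. Its ratio was 0.82 ± 0.12 with TGFb (adjusted p = 0.00223) and 0.83 ± 0.12 with IL6 (adjusted p = 0.00326, but 0.0039 with adjusted p = 0.988 with median centring), and 0.23 with TGFb plus IL6 (adjusted p = 0.238), where its T-effector signal was higher. With TGFb Ifi35, an interferon-induced leucine zipper protein, was higher in Treg (10.41, 10.43 and 10.14 against 9.93, 9.56 and 9.55, ratio 0.60 ± 0.13, adjusted p = 0.0178) and Ifih1 lower (ratio -0.74 ± 0.11, adjusted p = 0.00289). With median centring these were 0.76 (adjusted p = 0.16) and -0.56 (0.122) and did not pass. With IL6 Gbp3 was higher in Treg (11.65, 12.80 and 11.20 against 10.72, 10.53 and 10.52, ratio 1.21 ± 0.24, adjusted p = 0.0155, 0.80 without slide A, and 0.15 with adjusted p = 0.683 with median centring), as was Parp14 (0.60 ± 0.09, adjusted p = 0.00397, but -0.47 with median centring). Mx1 was lower in Treg with IL6 (6.36, 6.05 and 6.52 against 6.65, 6.84 and 6.75, ratio -0.41 ± 0.10, adjusted p = 0.035), close to background. That call was lost without slide A (-0.26, adjusted p = 0.109) and with the replicate block (-0.41, adjusted p = 0.0696).

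With TGFb and no IL6, single members moved in both directions. In Treg samples 1 member rose and 5 fell, where 3.49% of all genes rose and 4.03% fell, and in T-effector samples none rose and 3 fell (1.94% and 2.32% of all genes). Gbp2 had Treg signals of 14.65, 14.49 and 14.36 with IL2 and 13.13, 13.34 and 13.48 with TGFb, and fell by 1.13 ± 0.13 (adjusted p = 3.62e-06, but -0.50 with adjusted p = 0.153 with median centring). In T-effector samples it went from 15.00, 14.77 and 14.78 to 13.62, 13.85 and 13.50, and fell by 1.25 ± 0.13 (adjusted p = 3.06e-06). With IL6 added its signals lay above those with IL2 in Treg samples and overlapped them in T-effector samples, and in both Gbp2 was lowest with TGFb alone. Ifih1 fell with TGFb from 10.37, 9.58 and 9.80 to 7.83, 8.08 and 7.88 in Treg samples (by 2.04 ± 0.17, adjusted p = 2.81e-08) and from 9.60, 9.73 and 9.70 to 8.40, 8.82 and 8.63 in T-effector samples (by 1.01 ± 0.17, adjusted p = 0.000698). Its other probe, above background in 8 channels, had mean differences of -0.50 in Treg and -0.35 in T-effector samples. The size of the fall thus rests on the brighter probe.

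On the brighter probe the fall of Ifih1 was larger in Treg, since the change of its ratio was -1.03 ± 0.16 (adjusted p = 0.00694, and -0.76 with adjusted p = 0.00887 without slide A). With median centring that change was 0.05. Usp18 fell with TGFb in Treg samples from 8.70, 8.83 and 8.84 to 7.53, 7.68 and 7.23 (by 1.29 ± 0.23, adjusted p = 0.000721). In T-effector samples it had 8.27, 8.26 and 8.55 and then 7.78, 7.87 and 7.48, lower on each TGFb array but not called (-0.67 ± 0.23, adjusted p = 0.113, and 0.00841 without slide A). Usp18 was among the members whose Treg values stood apart on slide A, so the latter p-value is not an independent test. Oas1a fell by 0.40 in Treg samples, where 1 of 3 arrays with TGFb and 3 of 3 with IL2 were well above background. Isg15 fell by 0.48 in Treg samples, a call lost without slide A (-0.29, adjusted p = 0.14) and with median centring (-0.36, adjusted p = 0.067). Irf8 rose in Treg samples, from 10.28, 11.65 and 12.06 with IL2 to 12.98, 12.98 and 12.89 with TGFb (1.70 ± 0.34, adjusted p = 0.00229, and 1.09 with adjusted p = 0.000821 without slide A), and its other probe moved by 1.58. The summed signal of 8 B cell markers in the Treg samples was 9057.26 to 10114.5 with TGFb and 5147.17 to 6861.3 with IL2. A sum follows its brightest genes. Of the 8 markers 1 was called higher and 3 lower with TGFb (median difference -0.50), where 3.49% and 4.03% of all genes changed. The part of these markers in the Irf8 rise was not tested. Mx1 in T-effector samples was lower with TGFb, where none of 3 arrays was well above background (fitted difference -0.50, adjusted p = 0.0171). Its mean with IL2 was 1.39-fold above the higher of the dim value and the array's lowest signal above background.

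Of the changes of ratio with TGFb, 1 member was called higher and 1 lower, where 2.34% and 3.51% of all genes were called. The higher was Tap1 (0.72 ± 0.18, adjusted p = 0.0439), which had Treg signals of 8.67, 9.22 and 8.78 with IL2 and 9.65, 9.39 and 9.47 with TGFb, while its T-effector signals overlapped (8.81, 9.38 and 9.23 against 9.52, 8.83 and 8.90). The Tap1 call was lost in 13 of 27 alternatives, among them no dye term, without slide B and without any single IL2 or TGFb array. Rtp4 (-1.96 ± 0.60, adjusted p = 0.0777) and Ifit1 (-1.63 ± 0.47, adjusted p = 0.0668) had larger differences that did not pass.

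IL6 without TGFb was followed by the fewest calls. Only Ifih1 passed, and it fell from 10.37, 9.58 and 9.80 to 8.43, 8.70 and 8.27 in Treg samples (by 1.50 ± 0.17, adjusted p = 2.59e-05) and from 9.60, 9.73 and 9.70 to 8.25, 8.28 and 8.30 in T-effector samples (by 1.35 ± 0.17, adjusted p = 0.000128). For Treg samples a difference between animals cannot be told apart from IL6, since Eif2s3y also differed between these conditions. In Treg samples 0.341% of all genes rose and 0.492% fell, and in T-effector samples 0.381% and 0.401%. No member's ratio differed between IL6 and IL2 by limma (0% of all genes in either direction, with 1 member at an unadjusted p under 0.05). Gbp2, which rose with IL6 in the presence of TGFb, had 14.67, 14.69 and 14.65 with IL6 in Treg samples against 14.65, 14.49 and 14.36 with IL2 (0.22 ± 0.13, adjusted p = 0.733). Whether the IL6 difference of Gbp2 depends on TGFb was not tested as an interaction.

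The comparison of TGFb plus IL6 with IL6 gives the difference with TGFb where IL6 was present in both. In T-effector samples 11 members were higher and 2 lower, where 5.04% of all genes were higher and 5.83% lower, and the 11 were 10 type I style members and Gbp3. Rtp4 had 8.55, 8.50 and 8.56 with IL6 against 10.41, 10.27, 10.36 and 10.76 with both (1.82 ± 0.47, adjusted p = 0.014), Ifit3 had 7.75, 8.16 and 7.96 against 9.25, 9.64, 9.44 and 9.73 (1.49 ± 0.41, adjusted p = 0.0213), and Ifit1 had 6.93, 6.57 and 6.68 against 7.86, 7.98, 7.62 and 8.22 (1.14 ± 0.36, adjusted p = 0.0448). For all 3 the samples with both cytokines were the highest of the T-effector samples. Gbp3, Oas2, Parp14, Parp9, Oasl2, Ifi35, Isg20 and Irf7 were higher by 0.42 to 0.92. Without slide A Ifi35 (0.50, adjusted p = 0.0957) and Irf7 (0.42, 0.0609) did not pass. With the replicate block Ifit1 (adjusted p = 0.0568), Irf7 (0.38, 0.0889) and Isg20 (0.44, 0.0634) did not. With median centring Gbp3 (0.43, adjusted p = 0.275), Ifi35 (0.10, 0.796), Isg20 (0.06, 0.851), Parp14 (0.20, 0.578) and Parp9 (0.27, 0.307) did not. Ifih1 fell by 1.04. Mx1 fell by 0.71, with 1 of 4 arrays with both cytokines and 3 of 3 with IL6 well above background.

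In Treg samples 3 members were higher with both cytokines than with IL6 (Irf8 by 1.53, Parp9 by 0.82 and Ifi35 by 0.66) and 6 lower, where 4.61% and 4.99% of all genes changed. The lower ones included Zbp1, at 8.65, 11.02 and 8.73 with IL6 and 7.35, 7.75, 7.44 and 7.85 with both (-1.86 ± 0.38, adjusted p = 0.00217, and -1.07 with adjusted p = 0.000207 without slide A), and Ifih1 (-1.54 ± 0.16, adjusted p = 3.94e-07). Usp18 had 9.03, 7.91 and 9.19 with IL6 and 8.01, 8.06, 7.96 and 8.06 with both (-0.70 ± 0.21, adjusted p = 0.0419), and the slide A array, at 7.91, lay below all 4. Without slide A that difference was -1.08, and without slide E, which held the other 2 IL6 arrays, it was 0.14. The Usp18 call was also lost with the replicate block (-0.70, adjusted p = 0.0607) and with median centring (-0.33, adjusted p = 0.394). Oas1a, Isg15 and Irf1 fell by 0.43 to 0.49. Oas1a was well above background on 2 of 4 arrays with both cytokines, and Isg15 did not pass with median centring (-0.32, adjusted p = 0.0885). The Irf1 fall did not pass without slide A (-0.34, adjusted p = 0.0613) or with the replicate block (-0.41, adjusted p = 0.0556), and was 0.14 with median centring. The ratio of Treg over T-effector was lower with both cytokines than with IL6 in 4 members, where 1.5% of all genes were higher and 2.45% lower, namely Rtp4 (-2.53 ± 0.55, adjusted p = 0.0325, and -1.94 with adjusted p = 0.00195 without slide A), Parp14 (-0.86 ± 0.12, adjusted p = 0.0056), Irf1 (-0.75 ± 0.11, adjusted p = 0.00738) and Oas1a (-0.39 ± 0.10, adjusted p = 0.0457), of which Irf1 (0.38) and Parp14 (0.13) turned positive with median centring. The other Irf1 probe, above background in all 26 channels, gave 0.23 (adjusted p = 0.256). With the replicate block Rtp4 (-2.63, adjusted p = 0.053) and Oas1a (-0.41, 0.0711) did not pass, and with median centring Oas1a was at -0.31 (adjusted p = 0.0651).

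Members varied together across arrays to different degrees. Over the 13 arrays, which share slides and conditions, the log2 ratio of Ifit1 correlated with that of Ifit3 at 0.96, Rtp4 at 0.95, Gbp3 at 0.88 and Oas2 at 0.87, and with that of Irf8 at -0.92. Gbp2, Parp9 and the antigen-processing members did not follow it (-0.37, 0.01, and -0.54 to 0.06). Among genes outside the list, Bcl2 (0.92), Olfr1095 (0.88) and Etnppl (0.87) had the ratios most like the members' median. These correlations describe arrays in which slide A lies at one end, and no test was made of them.

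Of 86 further genes of interferon signalling, 72 were tested. When IL6 was added to TGFb, 24 rose and 3 fell in T-effector samples (median 0.32), where 4.04% and 3.15% of all genes did, and 11 rose and 5 fell in Treg samples, where 2.77% and 2.6% did. Of the type I interferon genes, Ifna1 was above background in all 26 channels and was not called between these conditions (0.10 in T-effector samples, adjusted p = 0.749), Ifna2 and Ifnb1 were above background in 1 channel each and Ifna4 in none. Ifna1 has near-identical family members, so its probe's signal is uncertain. Ifng, the IFN-gamma gene, was above background in every channel and fell by 1.60 ± 0.44 (adjusted p = 0.0266) in T-effector samples. The receptor chains Ifngr1 (1.15 ± 0.23, adjusted p = 0.00229), Ifngr2 (0.93 ± 0.15, adjusted p = 0.000264) and Ifnar2 (0.58, adjusted p = 0.0167) rose there.

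The signal transducer Stat2 rose by 1.21 ± 0.13 (adjusted p = 1.8e-06) in T-effector samples and by 0.53 (adjusted p = 0.016) in Treg samples. The feedback inhibitors Socs3, a known target of IL6 through Stat3, and Socs1 rose by 2.98 and 1.46. Of further induced genes, Cxcl10, a chemokine, rose by 1.81, Samhd1, a nucleotide hydrolase, by 1.45, Ly6c1 by 1.34, Ifi27 by 1.17, Ifitm1 by 1.11 and Ly6a by 1.09, while Ifitm2 fell by 0.75. Markers of the cell types that make type I interferon were mixed. Siglech and Clec9a were above background in no channel, and Itgam, Lyz2 and Adgre1 in few. Tcf4 and Fcer1g were above it in all 13 Treg and 13 T-effector channels. Ly6d, Klk1, Ccr9, Cd68, Itgax and Cd86 were so in at least 10 of each, and Cd14, Csf1r and Flt3 lay between. Summed signals were 459.126 to 791.194 over 4 plasmacytoid dendritic genes and 838.553 to 1465.52 over 8 myeloid and dendritic genes, over all channels.

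In the authors' deposited table, which holds 1 log2 value of Treg over T-effector per probe and condition, the members had the same direction as the ratios here in 34 of 36 with IL2, 32 with TGFb, 34 with TGFb plus IL6 and 33 with IL6. All members called here, 7, 3, 7 and 4 in that order, had the same direction in the authors' deposited table. The member medians in the authors' deposited table were 0.21, 0.01, -0.33 and 0.13.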

How the data were processed

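Each of 13 2-colour arrays was scanned with Agilent Feature Extraction 9.5.1.1, per the file headers. The intensity values are the mean spot and median local background signals that the authors deposited, without normalization. The log10 ratios and processed signals in the deposited files were background-subtracted and dye-normalized by that software, per the file headers, and served as an alternative. For each probe the authors' deposited table gives a log2 value in every condition, with no statement of its scale or centring. Here normexp (offset 50) and within-array loess were applied, and limma 3.58.1 (R 4.3.3) fitted the ratios with a dye term (8 residual degrees of freedom) and the separate channels after Aquantile normalization (17 degrees of freedom, intraspot correlation 0.448). Benjamini-Hochberg adjustment covered the 19932 genes tested, with a threshold of 0.05. The probe with the highest mean signal stood for a gene, and 135 genes lacked a value on at least 1 array. Arrays 1 to 3 of TGFb and TGFb plus IL6 share slides and dyes, and the replicate block pairs them by number. Their deviations from the condition means correlated at 0.86, 0.57 and 0.79 for ratios. Arrays of different numbers were not compared, so slide, dye and a shared culture cannot be told apart in these correlations. The number of arrays limits the precision. The rule for named genes asked for values in every array for 10 anchor genes (Ifit1, Rtp4, Irf7, Isg15, Usp18, Gbp2, Igtp, Irf1, Irf8 and Tap1) and for up to 4 further members per comparison with the largest change past the threshold. They are given in the comparisons where these genes are described, some further members were added after their values were seen, and the rest have counts. The members and lists were chosen with earlier results of these data known. Alternatives were other background, scaling, filter, spatial, slide, pairing and probe choices, and leaving out each array or slide. Values of a single gene of the wider signalling list are left out, although the counts over that list include it.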

Additional observations from a re-analysis of the deposited data

Results flagged for a closer look

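On array 1 of TGFb plus IL6 the log2 ratio of Oasl2 was -0.958, far from the other 3 arrays (-0.376 to -0.339). Of 36 members tested in this way in that condition it was the 1 whose gap passed Dixon's critical value, and chance flags about 1 in 20 groups. The change of the Treg over T-effector ratio between TGFb and IL2 tests whether the cell samples differ. It was -1.03 for Ifih1 and 0.719 for Tap1, whose call was lost in 13 of 27 alternatives. Between TGFb plus IL6 and IL6 it was -0.751 for Irf1, -0.391 for Oas1a, -0.864 for Parp14 and -2.53 for Rtp4. For Rtp4 the IL6 Treg signal of slide A was 11.32, against 9.02 and 9.15 on the other 2 arrays.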

How the results depend on the processing

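Counts of members called, in either direction, were 7 (ratio with IL2), 3 (ratio with TGFb), 7 (ratio with TGFb plus IL6), 4 (ratio with IL6), 2 (change of ratio, TGFb against IL2), 0 (change of ratio, IL6 against IL2), 0 (change of ratio, TGFb plus IL6 against TGFb), 4 (change of ratio, TGFb plus IL6 against IL6), 6 (Treg, TGFb against IL2), 1 (Treg, IL6 against IL2), 3 (Treg, TGFb plus IL6 against TGFb), 9 (Treg, TGFb plus IL6 against IL6), 3 (T-effector, TGFb against IL2), 1 (T-effector, IL6 against IL2), 13 (T-effector, TGFb plus IL6 against TGFb), 13 (T-effector, TGFb plus IL6 against IL6). They changed by over 1.5 times as follows, and the cause was not tested. The shares of all genes called under these settings are not given beside them, so a moved count cannot be read as particular to the members. Without the dye term the counts were 4 (ratio with IL2), 1 (ratio with TGFb plus IL6), 1 (change of ratio, TGFb against IL2), 2 (change of ratio, TGFb plus IL6 against IL6). With Agilent's processed signals the counts were 14 (ratio with TGFb), 17 (ratio with TGFb plus IL6), 6 (change of ratio, TGFb against IL2), 3 (change of ratio, TGFb plus IL6 against TGFb), 12 (change of ratio, TGFb plus IL6 against IL6), 7 (Treg, TGFb plus IL6 against TGFb), 5 (T-effector, TGFb against IL2), 8 (T-effector, TGFb plus IL6 against IL6). Medians there were -0.19 (type I style, ratio with TGFb), -0.57 (type I style, ratio with TGFb plus IL6). When all spots entered the background model the counts were 3 (ratio with IL2), 0 (ratio with TGFb), 1 (ratio with TGFb plus IL6), 0 (change of ratio, TGFb against IL2). Without background subtraction the counts were 2 (ratio with TGFb plus IL6). With median centring the counts were 13 (ratio with IL2), 1 (ratio with TGFb), 2 (ratio with TGFb plus IL6), 15 (ratio with IL6), 12 (change of ratio, TGFb against IL2), 11 (change of ratio, TGFb plus IL6 against IL6), 10 (Treg, TGFb against IL2), 10 (T-effector, TGFb against IL2). Medians there were -0.055 (type I style, ratio with IL2), -0.20 (type I style, ratio with IL6), -1.08 (IFN-gamma style, ratio with IL2), 0.31 (IFN-gamma style, ratio with TGFb), -1.13 (IFN-gamma style, ratio with IL6). Signs turned for Igtp, ratio with IL2 at -0.97, Irf1, ratio with IL2 at -0.91, Parp14, ratio with IL2 at -0.53, Igtp, ratio with IL6 at -1.14, Irf1, ratio with IL6 at -1.09, Parp14, ratio with IL6 at -0.47, Tap1, ratio with IL6 at -0.62, Ifih1, change of ratio, TGFb against IL2 at 0.049, Igtp, change of ratio, TGFb against IL2 at 1.11, Irf1, change of ratio, TGFb plus IL6 against IL6 at 0.38, Parp14, change of ratio, TGFb plus IL6 against IL6 at 0.13, Irf1, Treg, TGFb plus IL6 against IL6 at 0.14. With no filter the counts were 4 (ratio with TGFb plus IL6). With the spatial trend removed the counts were 14 (ratio with IL2), 13 (ratio with TGFb), 19 (ratio with TGFb plus IL6), 10 (ratio with IL6), 10 (change of ratio, TGFb against IL2), 4 (change of ratio, TGFb plus IL6 against TGFb), 12 (change of ratio, TGFb plus IL6 against IL6), 5 (Treg, TGFb plus IL6 against TGFb). With slide as a block the counts were 8 (ratio with TGFb), 19 (ratio with TGFb plus IL6), 11 (ratio with IL6), 8 (change of ratio, TGFb against IL2), 5 (change of ratio, TGFb plus IL6 against TGFb), 14 (change of ratio, TGFb plus IL6 against IL6), 12 (Treg, TGFb plus IL6 against TGFb), 8 (T-effector, TGFb against IL2). With the replicate block (array pairs of TGFb and TGFb plus IL6) the counts were 2 (change of ratio, TGFb plus IL6 against IL6), 2 (Treg, IL6 against IL2). The block moved no other count by that much. With every probe on its own the counts were 5 (ratio with TGFb). Medians there were 0.43 (IFN-gamma style, ratio with TGFb). Signs turned for Irf1, ratio with TGFb at 0.42, Irf1, change of ratio, TGFb against IL2 at 0.59. Without slide A the counts were 11 (ratio with TGFb), 16 (ratio with TGFb plus IL6), 4 (change of ratio, TGFb against IL2), 5 (change of ratio, TGFb plus IL6 against TGFb), 11 (change of ratio, TGFb plus IL6 against IL6), 2 (Treg, IL6 against IL2), 8 (Treg, TGFb plus IL6 against TGFb), 7 (T-effector, TGFb against IL2), 2 (T-effector, IL6 against IL2). Without slide B the counts were 2 (ratio with IL2), 1 (ratio with TGFb), 0 (ratio with TGFb plus IL6), 2 (ratio with IL6), 0 (change of ratio, TGFb against IL2), 0 (change of ratio, TGFb plus IL6 against IL6), 5 (Treg, TGFb plus IL6 against IL6), 5 (T-effector, TGFb against IL2), 5 (T-effector, TGFb plus IL6 against TGFb), 5 (T-effector, TGFb plus IL6 against IL6). Without slide E the counts were 5 (change of ratio, TGFb against IL2), 8 (change of ratio, TGFb plus IL6 against IL6), 4 (Treg, TGFb plus IL6 against IL6), 0 (T-effector, IL6 against IL2), 2 (T-effector, TGFb plus IL6 against IL6). Signs turned for Usp18, ratio with IL6 at -0.61, Usp18, Treg, TGFb plus IL6 against IL6 at 0.14. Slides A, B and E were left out after the data were seen. Leaving out each array in turn gave ranges of 1 to 8 (ratio with IL2), 1 to 12 (ratio with TGFb plus IL6), 0 to 6 (ratio with IL6), 1 to 5 (change of ratio, TGFb against IL2), 0 to 1 (change of ratio, IL6 against IL2), 2 to 9 (change of ratio, TGFb plus IL6 against IL6), 1 to 2 (Treg, IL6 against IL2), 2 to 6 (Treg, TGFb plus IL6 against TGFb), 1 to 2 (T-effector, IL6 against IL2), 8 to 16 (T-effector, TGFb plus IL6 against TGFb), 4 to 16 (T-effector, TGFb plus IL6 against IL6), -0.26 to -0.15 (median of type I style members, ratio with TGFb plus IL6), -0.070 to 0.10 (median of IFN-gamma style members, ratio with IL6). Of 76 member calls, 15 passed under every alternative run, 61 were lost under at least 1, and 7 turned sign under at least 1. Among those that passed throughout were Gbp2, Dhx58, Oas2, Parp9 and Ifih1 in T-effector samples when IL6 was added to TGFb. Dim members such as Rsad2, Ifi44, Mx1 and Oas3, with few channels well above background, limit what can be said of them.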
